A study of Homo sapiens with 16 samples.

Results

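Oxidative phosphorylation was described here through 89 nuclear genes that encode its subunits, out of 69222 gene rows in a count table of SH-SY5Y cells, a human neuroblastoma line. The genes were chosen by name: protein-coding symbols that begin with NDUFA, NDUFB, NDUFC, NDUFS or NDUFV and a number, with UQCR, with ATP5 or with COX4 to COX8, and SDHA, SDHB, SDHC and SDHD. A further 180 symbols met these patterns but were pseudogenes or non-coding genes and were dropped. Of the 89 genes, 37 belong to complex I, 4 to complex II, 9 to complex III, 19 to complex IV and 20 to complex V. NDUFA4 and NDUFA4L2 were counted with complex IV, because RefSeq lists them as COXFA4 and COXFA4L2. The patterns do not take in NDUFAB1 and CYC1, which are given with the other mitochondrial genes.

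The study asked how conductive films and electrical stimulation act on cells that are being differentiated. Polyadenylated RNA was sequenced in 16 libraries, 2 for each of 8 groups. In 6 groups the cells were differentiated on films coated with poly-L-lysine and laminin, made of P(rGO) (reduced graphene oxide in a polymer), the conducting polymer blend PEDOT:PSS or ITO (indium tin oxide), with or without stimulation. Stimulation was a square wave of 0.1 V at 1 Hz, given for 8 h a day over the final 4 days. Cells of the seventh group were differentiated on culture plates, and the eighth group, untreated cells on plates, is the only one without the differentiating agents. Differentiation combined stepwise serum withdrawal with 10 µM retinoic acid and then 50 ng/mL BDNF, so serum, retinoic acid and BDNF cannot be told apart. The time in culture and the serum of the untreated cells, and any coating of the plates, are not given in the sources used here. No label says whether the libraries of a group stem from separate cultures. P-values then reflect only how far these libraries spread, and that spread may be technical.

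Complexes I to IV pass electrons from NADH and succinate to oxygen and, except for complex II, pump protons across the inner mitochondrial membrane. Complex V, the ATP synthase, lets the protons flow back and makes ATP. All complexes but the second hold a few subunits made from mitochondrial DNA beside the nuclear ones, so their assembly draws on both genomes. Neurons rely on this machinery for most of their ATP, and textbook accounts place a shift from glycolysis towards it in neuronal differentiation.

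Levels are given as CPM, a gene's share of its library scaled to counts per 1e6 reads, with TMM-corrected library sizes, and differences as log2 fold changes ± standard error (SE). The libraries held 15600410 to 20851000 reads assigned to genes. Of the 89 members, 79 passed the expression filter and were tested: 33 of complex I, 4 of complex II, 9 of complex III, 15 of complex IV and 18 of complex V. Over those 79, the mean level ran from 0.305 CPM for the readthrough locus ATP5MF-PTCD1 to 478 CPM for ATP5F1B, the catalytic beta subunit of the ATP synthase, with a median of 52.4 CPM. The label of a neuroblastoma line was checked on 10 adrenergic markers: 9 were detected well enough to be tested, their sum was 4087 to 7085 CPM in the 16 libraries, and CHGA was listed at 0. The 3 blood markers summed to at most 0.0592 CPM in any library, 5 glial ones to 0.932 to 2.69 CPM and 3 epithelial ones to 0.515 to 2.84 CPM, with CD3E, SOX10 and KRT5 listed at 0.

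The other 10 members were not tested. COX7B2, COX8C and the readthrough NDUFC2-KCTD14 had no count in any library, and COX7A1, COX6A2 and ATP5MGL had 2, 11 and 27 counts over all 16 libraries; COX7A1 and COX6A2 are the heart and skeletal muscle forms of their subunits, and COX7B2 and COX8C are known from testis. NDUFA7, a complex I subunit, had 92 counts. ATP5IF1 (the inhibitor of the ATP synthase), NDUFA6 and NDUFS1 (the largest subunit of complex I and a carrier of its iron-sulfur clusters) were also listed at 0 in all libraries. Nearly all cells use these last 3 genes, so the zeros cannot be read as absence of the RNA. A few tested members were similarly far below the rest of their complex: NDUFV2 had 258 counts in all, NDUFA3 131, SDHA 726 and NDUFB8 867. Members of this paragraph that the rule for named genes does not give were named for their counts, after these were seen. Whether these low values come from the cells or from the alignment and counting was not tested.

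Per kilobase of transcript, the highest members were NDUFS5 in complex I (196 CPM per kb), SDHC in complex II (179 CPM per kb), UQCRH in complex III (368 CPM per kb), COX4I1 in complex IV (249 CPM per kb) and ATP5F1B in complex V (260 CPM per kb). Single-gene isoforms were mostly far apart in level. On the same scale COX4I1 was 1494-fold above its alternative form COX4I2 on unstimulated films, 506-fold in differentiated plates and 138-fold in untreated cells, with COX4I2 at few counts. COX6B1 was 70.9-fold above COX6B2 on unstimulated films, 41.4-fold in differentiated plates and 166-fold in untreated cells. NDUFA4 was 44.5-fold above NDUFA4L2 on unstimulated films, 17.1-fold in differentiated plates and 54.3-fold in untreated cells. These ratios of group means were not tested, and they moved with the groups. COX7A2 was 2.06-fold above COX7A2L, a relative that takes part in joining complexes III and IV into supercomplexes, on unstimulated films, 1.30-fold in differentiated plates and 1.98-fold in untreated cells. Over all libraries UQCRH was 64.1-fold above UQCRHL, an intronless copy of it, and the reads of such near-identical copies can be split between them, so both are uncertain.

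Promoter sequence is shown for NDUFB4 and SDHB, the complex I and II members with the largest called falls on plates, and for COX6A1 and NDUFA1, the members with the largest called differences between films and plates. The stretches run from 250 bases before the gene start to 50 after it, read 5′ to 3′ on the gene's strand, from RefSeq on GRCh38.p14: NDUFB4 at chr3:120596086-120596385 (plus strand), SDHB at chr1:17053983-17054282 (minus), COX6A1 at chr12:120437863-120438162 (plus) and NDUFA1 at chrX:119871582-119871881 (plus). Capitals mark matches, on either strand, to motifs of factors known to act on respiratory genes: GCGCATGCG for NRF1, CCGGAAG for ETS factors such as GABPA, and AAGATGGC for YY1.
NDUFB4: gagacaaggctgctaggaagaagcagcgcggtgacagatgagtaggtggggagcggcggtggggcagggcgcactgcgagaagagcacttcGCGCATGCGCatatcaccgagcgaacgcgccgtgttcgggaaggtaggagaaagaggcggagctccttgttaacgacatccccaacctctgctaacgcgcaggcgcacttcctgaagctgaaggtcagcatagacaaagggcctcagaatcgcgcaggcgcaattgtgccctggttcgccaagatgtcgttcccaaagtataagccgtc
SDHB: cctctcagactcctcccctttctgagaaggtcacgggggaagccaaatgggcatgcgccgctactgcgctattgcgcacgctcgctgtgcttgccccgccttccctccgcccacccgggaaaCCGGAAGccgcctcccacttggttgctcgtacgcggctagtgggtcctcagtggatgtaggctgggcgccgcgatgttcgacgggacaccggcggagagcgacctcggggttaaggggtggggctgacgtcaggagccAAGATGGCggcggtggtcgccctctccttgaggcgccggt
COX6A1: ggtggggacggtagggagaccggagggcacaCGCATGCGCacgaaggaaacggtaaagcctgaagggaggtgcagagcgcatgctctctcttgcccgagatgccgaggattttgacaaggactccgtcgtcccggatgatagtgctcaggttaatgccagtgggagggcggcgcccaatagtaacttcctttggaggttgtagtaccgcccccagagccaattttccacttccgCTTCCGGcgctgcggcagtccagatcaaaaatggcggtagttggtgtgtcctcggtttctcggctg
NDUFA1: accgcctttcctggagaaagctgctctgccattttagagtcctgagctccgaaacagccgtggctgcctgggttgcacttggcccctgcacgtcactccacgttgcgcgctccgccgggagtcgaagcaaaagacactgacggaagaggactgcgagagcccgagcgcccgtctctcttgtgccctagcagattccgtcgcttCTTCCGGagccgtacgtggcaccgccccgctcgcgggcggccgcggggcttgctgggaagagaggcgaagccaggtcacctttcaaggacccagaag
NDUFB4 holds the NRF1 letters on both strands, overlapping, at positions -159 and -158 from the gene start. SDHB holds the ETS letters at -128 and the YY1 letters at 10. COX6A1 has the NRF1 letters at -219 and the ETS letters at -16, both on the reverse strand, and NDUFA1 has the ETS letters at -47 on the reverse strand. Of the 89 members, 72 had a promoter in the RefSeq table. The NRF1 letters stood in 10 of the 72 (13.9%), against 2.36% of 22199 promoters of protein-coding genes. The ETS letters stood in 20 (27.8%, against 12.8%) and the YY1 letters in 11 (15.3%, against 3.53%). At least 1 of the 3 motifs stood in 34 of the 72 (47.2%, against 17.3%). Members entered with their first listed promoter, but the 22199 hold every listed one. Base composition was not matched, so these shares are not like for like. Each printed promoter holds a motif, although most members do not, so the printed ones are not typical. The promoter of NDUFA4, the complex IV member with the largest called fall on plates after COX4I2, holds none of the 3. By complex, the YY1 letters were found in 6 of 32 promoters of complex I, 1 of 3 of complex II and 1 of 7 of complex III. Complex IV had them in 0 of 16 and complex V in 3 of 14. The NRF1 letters stood in 4 of 32 of complex I and 1 of 16 of complex IV, and the ETS letters in 5 of each. These counts are small, and differences between complexes were not tested. These matches describe the letters of the windows and are not binding sites.

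Most nuclear subunit genes were lower in cells differentiated on plates than in untreated cells. Of the 79 tested, 50 were lower and 1 was higher at an adjusted p of at most 0.05 (edgeR's quasi-likelihood test over 18081 genes, Benjamini-Hochberg). Over all genes 29.6% were called in this comparison, 15.8% lower and 13.8% higher. The median log2 fold change of the tested members was -0.56, against -0.01 for all genes tested. In all 51 called members the plate libraries did not overlap the untreated ones. The calls rest on the same libraries and the share over all genes was not computed, so this adds no support to them. The fall ran through the 5 complexes: 17 of 33 tested members of complex I were lower, 2 of 4 of complex II, 8 of 9 of complex III, 12 of 15 of complex IV and 11 of 18 of complex V. Median log2 fold changes were -0.49 for complex I, -0.59 for complex II, -0.67 for complex III, -0.74 for complex IV and -0.58 for complex V.

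The summed level of the 89 genes was 5083 and 4727 CPM in differentiated plates, against 7106 and 7867 CPM in untreated cells. Without library scaling, the members took 0.507% and 0.479% of assigned reads in differentiated plates and 0.663% and 0.689% in untreated cells. Both measures separate the groups. In bulk RNA, fewer cells of a kind and less RNA per cell cannot be told apart. Other RNA moved with differentiation as well: cytosolic ribosomal protein genes took 5.74% and 4.27% of reads in differentiated plates and 6.44% and 9.28% in untreated cells. Of 10 markers of mesenchymal neuroblastoma or fibroblasts, 8 were tested and 7 were lower, and they summed to 177 and 188 CPM in differentiated plates, against 1029 and 759 CPM in untreated cells. Adrenergic markers summed to 5491 and 5459 CPM in differentiated plates, against 6819 and 7085 CPM in untreated cells, and 4 of the 9 tested were lower and 1 was higher. Their part in the fall of the subunit genes was not tested.

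**Figure D1:**
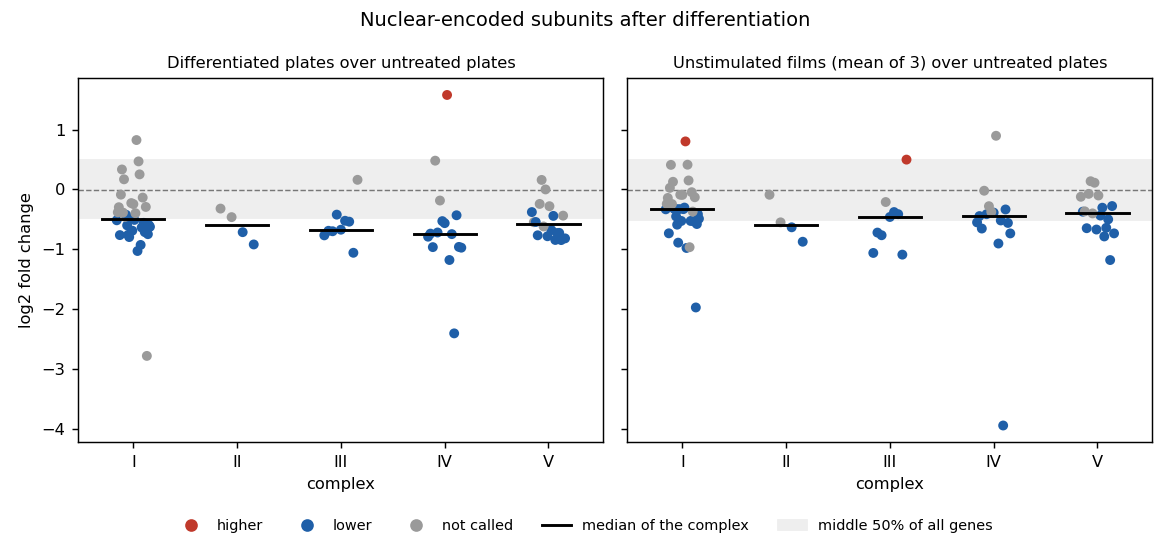
Log2 fold change (vertical axis) of each tested subunit gene by complex, for differentiated plates over untreated plates (left) and for the mean of the 3 unstimulated films over untreated plates (right); each point is 1 gene, coloured by its call, black bars are medians of a complex, the dashed line is the median of all genes and the grey band the middle 50% of them. On plates the medians of the complexes lie between -0.49 and -0.74, and 50 of 79 genes are called lower.

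In complex I, NDUFB4, an accessory subunit of the membrane arm, had the largest called fall. It stood at 55.5 and 43.2 CPM in differentiated plates and at 82.0 and 120 CPM in untreated cells, a log2 fold change of -1.03 ± 0.19 (edgeR adjusted p = 0.00204). NDUFS7, which carries the last iron-sulfur cluster before ubiquinone, was at 31.6 and 32.9 CPM in differentiated plates, against 50.2 and 72.6 CPM in untreated cells (-0.93 ± 0.22). In both genes the plate libraries lay below both untreated ones, which were far apart from each other. NDUFA12, an accessory subunit of the matrix arm, was at 25.2 and 20.6 CPM in differentiated plates and at 42.4 and 37.1 CPM in untreated cells (-0.80 ± 0.15). NDUFS5, the highest member of complex I per length, fell as well (-0.76 ± 0.15), with 109 and 80.2 CPM in differentiated plates and 174 and 146 CPM in untreated cells. NDUFV1, the subunit that binds NADH and FMN, was at 112 and 94.2 CPM in differentiated plates and at 143 and 170 CPM in untreated cells (-0.60 ± 0.14). Its partner NDUFV2 had the most negative fold change of complex I, -2.78 ± 1.01, but rests on 1 library: it was at 0.543 and 0.25 CPM in differentiated plates, against 0.296 and 5.20 CPM in untreated cells, and was not called (edgeR adjusted p = 0.0513). NDUFC2, in contrast to the trend, stood at 8.85 and 9.94 CPM in differentiated plates and 7.75 and 2.84 CPM in untreated cells, a difference that was not called (0.82 ± 0.36).

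Complex II, succinate dehydrogenase, is the only complex with no mitochondrially encoded subunit. SDHB, its iron-sulfur subunit, was at 26.7 and 28.5 CPM in differentiated plates and at 47.4 and 57.0 CPM in untreated cells (-0.92 ± 0.15, edgeR adjusted p = 0.000805). SDHD, a membrane anchor, was at 17.2 and 14.6 CPM in differentiated plates, against 24.8 and 27.4 CPM in untreated cells (-0.72 ± 0.18). Both falls passed the test and neither pair of groups overlapped. SDHC, the other anchor, did not pass (-0.32 ± 0.13, edgeR adjusted p = 0.0775), with 74.4 and 73.2 CPM in differentiated plates and 105 and 79.6 CPM in untreated cells. SDHA, the flavoprotein that oxidises succinate, was counted at 2.71 and 2.2 CPM in differentiated plates and at 2.60 and 4.18 CPM in untreated cells, where the groups overlapped (-0.46 ± 0.29).

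In complex III, the cytochrome bc1 complex, 8 of 9 members were called, all of them lower. UQCRH, the hinge protein that helps cytochrome c bind, was at 270 and 196 CPM in differentiated plates, against 364 and 430 CPM in untreated cells (-0.77 ± 0.15, edgeR adjusted p = 0.00216). Its copy UQCRHL fell by 1.06 on the log2 scale (SE 0.27), from reads that may belong to UQCRH. The core proteins UQCRC1 (-0.70 ± 0.14) and UQCRC2 (-0.67 ± 0.18) were lower by like amounts. UQCRC2 stood at 86.5 and 84.0 CPM in differentiated plates and at 100 and 172 CPM in untreated cells, with both plate libraries close together and the untreated libraries far apart. UQCR11 was the single member of complex III that was not called (0.16 ± 0.22), at 9.23 and 9.64 CPM in differentiated plates and 10.5 and 6.41 CPM in untreated cells.

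In complex IV, cytochrome c oxidase, NDUFA4 had the largest called fall after COX4I2, a gene of few counts. NDUFA4, now placed in this complex, was at 86.9 and 75.8 CPM in differentiated plates and at 185 and 184 CPM in untreated cells. Its log2 fold change was -1.18 ± 0.13 (edgeR adjusted p = 6e-05), the lowest adjusted p of any member in this comparison. COX8A was at 22.9 and 18.2 CPM in differentiated plates, against 36.5 and 44.2 CPM in untreated cells (-0.98 ± 0.16). COX6A1 was at 20.2 and 16.1 CPM in differentiated plates, against 32.3 and 38.7 CPM in untreated cells (-0.97 ± 0.16), and COX7B gave -0.96 ± 0.15. The housekeeping subunit COX4I1, which helps tune the enzyme to the ATP level, fell less: it was at 190 and 180 CPM in differentiated plates and at 243 and 293 CPM in untreated cells (-0.53 ± 0.13). COX6B2, a form known from testis, was the single member higher on plates, at 6.30 and 10.2 CPM in differentiated plates and 0.828 and 4.72 CPM in untreated cells (1.58 ± 0.50, edgeR adjusted p = 0.0306). COX4I2, the form known for its response to low oxygen in lung, had the largest called fall (-2.41 ± 0.69), from 105 counts over all 16 libraries: 0.489 and 0.15 CPM in differentiated plates against 2.31 and 1.09 CPM in untreated cells. NDUFA4L2, known as a target of hypoxia-inducible factor, was at 3.31 and 1.95 CPM in differentiated plates and at 2.54 and 1.21 CPM in untreated cells, where the groups overlapped.

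In complex V, the catalytic beta subunit ATP5F1B was at 415 and 409 CPM in differentiated plates, against 719 and 736 CPM in untreated cells (-0.82 ± 0.13, edgeR adjusted p = 0.000639). The gamma subunit ATP5F1C, the shaft that turns inside the catalytic head, fell by about as much (-0.85 ± 0.12), and so did ATP5PB of the peripheral stalk (-0.77 ± 0.12). The c ring, the rotor in the membrane, is encoded by 3 genes for 1 mature protein. ATP5MC2 was at 133 and 116 CPM in differentiated plates and at 184 and 263 CPM in untreated cells (-0.85 ± 0.15), and ATP5MC3 was at 64.2 and 61.9 CPM in differentiated plates and at 105 and 104 CPM in untreated cells (-0.73 ± 0.11). ATP5MC1 was not called (-0.44 ± 0.20): it stood at 32.0 and 27.6 CPM in differentiated plates, and the untreated libraries, at 50.4 and 30.4 CPM, spanned a wide range. Among small membrane subunits, ATP5MJ (-0.78 ± 0.13) and ATP5MK (-0.73 ± 0.12) were lower.

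These calls lean on the spread shared over the 8 groups. With the 4 libraries of this comparison alone, 1 member was called and 34 had an unadjusted p under 0.05. That fit uses the same libraries, so the signs of the called members could hardly turn and add no support. Without replicate 2 of the differentiated plates, the median log2 fold change of the tested members was -0.53.

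**Figure D2:**
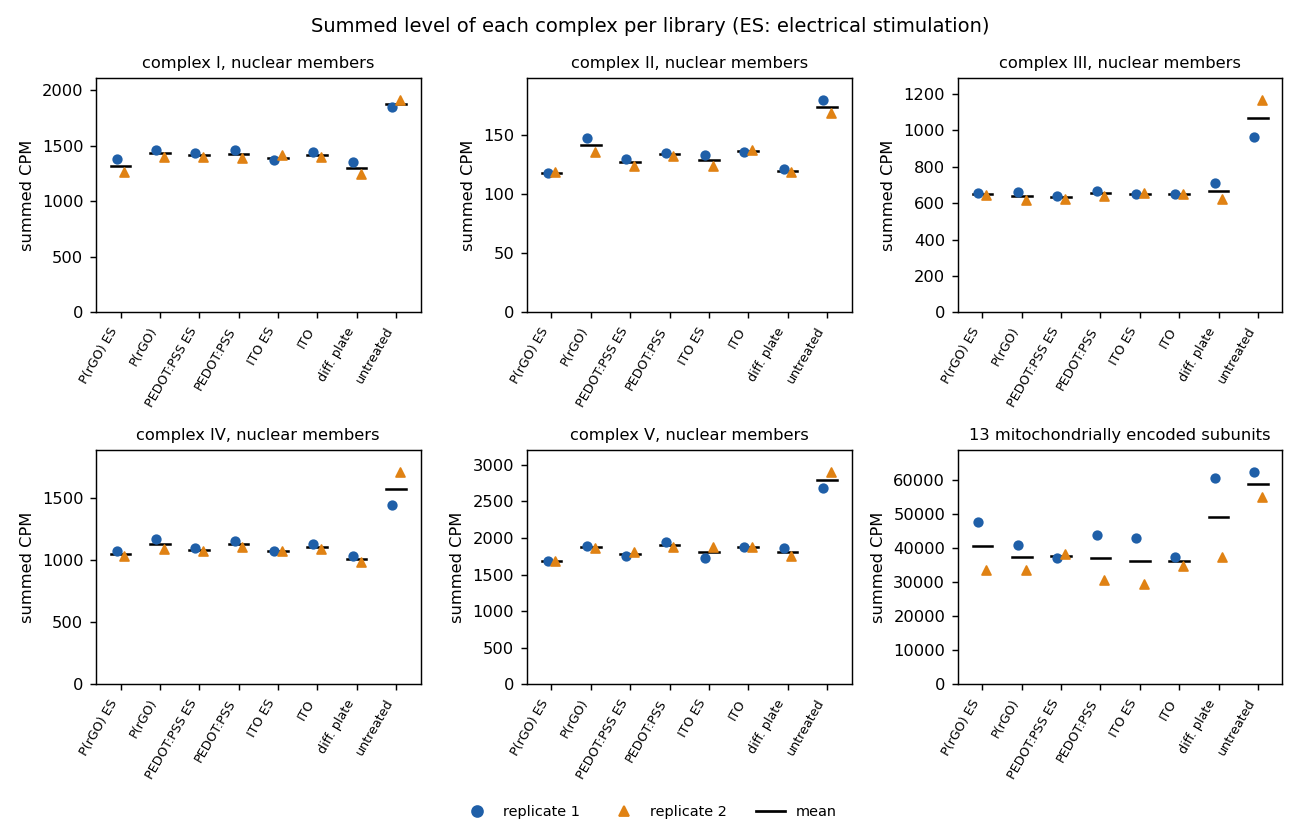
Summed CPM (vertical axis, from 0) of the nuclear members of each complex and of the 13 mitochondrially encoded subunits in each of the 16 libraries; circles are replicate 1, triangles replicate 2 and bars the mean of the 2, with ES for electrical stimulation. For every complex both untreated libraries lie above all 14 differentiated ones, while the replicates of the mitochondrially encoded sum differ widely, with 60792 and 37399 CPM in differentiated plates and 62506 and 55215 CPM in untreated cells.

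Cells differentiated on films without stimulation were compared with the same untreated cells, taking the mean of the 3 films. Here 49 of the 79 tested members were lower and 2 were higher; over all genes 44.8% were called, 24.3% lower and 20.4% higher. The median log2 fold change was -0.40, against -0.01 for all genes. Complex I had 18 members lower and 1 higher, complex II 2 lower, complex III 7 lower and 1 higher, complex IV 11 lower and complex V 11 lower. The summed level of the members was 5102 to 5358 CPM in the 6 film libraries, with a median of 5193 CPM, and 7106 and 7867 CPM in untreated cells. Mesenchymal markers summed to 213 to 365 CPM on films, against 1029 and 759 CPM in untreated cells. Among them, VIM, FN1, COL1A1, COL3A1, DCN and THY1 were called lower and PDGFRB was not called. LUM went the other way and was called higher (1.56 ± 0.30, edgeR adjusted p = 0.000901). Adrenergic markers summed to 4087 to 5059 CPM on films, against 6819 and 7085 CPM in untreated cells. The part of both marker lists in the result was not tested. This comparison shares the untreated libraries with the one on plates, so the 2 sets of calls are not independent of each other.

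Among the largest falls on films, UQCRH was at 172 to 195 CPM in the 6 film libraries (median 186) and at 364 and 430 CPM in untreated cells (-1.09 ± 0.11, edgeR adjusted p = 7.81e-06). ATP5MC2 was at 88.8 to 104 CPM on films (median 99.7), against 184 and 263 CPM in untreated cells (-1.18 ± 0.12, edgeR adjusted p = 5.38e-06). NDUFB4 was at 47.2 to 55.5 CPM on films (median 50.9) and at 82.0 and 120 CPM in untreated cells (-0.98 ± 0.15). In these 3 genes the film libraries lay together and below both untreated ones. SDHD (-0.88 ± 0.14) and SDHB (-0.63 ± 0.12) were the called members of complex II. In complex IV, COX8A was at 18.8 to 23.7 CPM on films (median 22.1), against 36.5 and 44.2 CPM in untreated cells (-0.91 ± 0.12), and COX7A2L, at 117 to 134 CPM on films (median 126) and 141 and 201 CPM in untreated cells, was also lower (-0.45 ± 0.11). COX4I2 was at 0.0573 to 0.237 CPM on films, against 2.31 and 1.09 CPM in untreated cells (-3.95 ± 0.58), a difference of a few reads per library.

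The 2 members that were higher on films than in untreated cells were NDUFC2 (0.80 ± 0.30, edgeR adjusted p = 0.0443) and UQCR11 (0.50 ± 0.18, edgeR adjusted p = 0.040). NDUFC2, a membrane arm subunit of complex I, was at 8.05 to 10.5 CPM on films (median 9.17) and at 7.75 and 2.84 CPM in untreated cells. UQCR11, the smallest subunit of complex III, was at 11.1 to 13.1 CPM on films (median 12) and at 10.5 and 6.41 CPM in untreated cells. For both, 1 untreated library lay just below the films and the other further off. NDUFV2 was called lower (-1.97 ± 0.70) although the groups overlapped, at 0.408 to 1.1 CPM on films and 0.296 and 5.20 CPM in untreated cells. With libraries scaled by total counts the median of all genes moved to 0.15 and that of the members to -0.25, and 35 members were called.

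Unstimulated films were then set against differentiated plates. The films were coated with poly-L-lysine and laminin, and any coating of the plates is not given. Film material and coating therefore cannot be told apart in this comparison. For the mean of the 3 films, 13 of 79 tested members were higher and 0 were lower, by edgeR's quasi-likelihood test; over all genes 8.25% were called, 4.46% higher and 3.79% lower. The 79 members had a median log2 fold change of 0.14, against -0.03 for all genes, and 26 of them had an unadjusted p under 0.05. Complex IV held 5 of the 13 (COX6A1, COX6C, COX7A2, COX7B and NDUFA4), complex I another 5 (NDUFA1, NDUFA8, NDUFA12, NDUFC1 and NDUFS6) and complex V 3 (ATP5F1E, ATP5MC3 and ATP5MK), and complexes II and III held 0. For single films, 6 members were higher on P(rGO) (4.63% of all genes called, 2.99% higher and 1.64% lower), 2 on PEDOT:PSS (1.48% called, 1.02% higher and 0.454% lower) and 6 on ITO (4.23% called, 2.50% higher and 1.73% lower), and 0 were lower on any of them. The 3 film comparisons share the plate libraries, so their calls are not independent.

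NDUFA1, a small membrane arm subunit of complex I encoded on the X chromosome, was called on each film. It stood at 41.9 and 43.2 CPM on P(rGO), 40.5 and 38.9 CPM on PEDOT:PSS and 41.1 and 37.4 CPM on ITO, against 26.0 and 28.0 CPM in differentiated plates. The log2 fold change of the film mean was 0.58 ± 0.11 (edgeR adjusted p = 0.00522). In untreated cells it was at 39.9 and 39.7 CPM, within the range of the films, and the film mean differed from the untreated cells by 0.02 ± 0.10.

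COX6C is a small subunit of complex IV, and here too the plates were lowest. It was at 72.9 and 68.7 CPM on P(rGO), 69.1 and 68.3 CPM on PEDOT:PSS and 72.4 and 68.6 CPM on ITO, against 48.2 and 47.9 CPM in differentiated plates (0.54 ± 0.09, edgeR adjusted p = 0.00358). Untreated cells had 73.0 and 69.3 CPM, so films and untreated cells overlapped and the plates stood apart. COX6A1, the common form of a regulatory subunit, had the largest called difference, 0.68 ± 0.14 (edgeR adjusted p = 0.0085). It was at 30.7 and 28.2 CPM on P(rGO), 29.5 and 29 CPM on PEDOT:PSS and 28.7 and 29.1 CPM on ITO, against 20.2 and 16.1 CPM in differentiated plates. On PEDOT:PSS alone it missed the threshold (0.69 ± 0.16, edgeR adjusted p = 0.0567), at about the same size as on the other films.

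NDUFA4 was at 109 to 128 CPM in the 6 film libraries (median 116) and at 86.9 and 75.8 CPM in differentiated plates (0.53 ± 0.11, edgeR adjusted p = 0.00862). It was at 185 and 184 CPM in untreated cells, and the film mean fell by 0.66 ± 0.10 on the log2 scale against these. ATP5MC3, 1 of the 3 genes of the c ring, was at 82.3 to 94.6 CPM on films (median 85.0), against 64.2 and 61.9 CPM in differentiated plates (0.45 ± 0.09, edgeR adjusted p = 0.00939). ATP5MC2, which gives the same mature protein, was at 88.8 to 104 CPM on films and at 133 and 116 CPM in differentiated plates, a difference that was not called (-0.33 ± 0.12, edgeR adjusted p = 0.109). The remaining called members had log2 fold changes of 0.36 ± 0.10 (ATP5MK), 0.40 ± 0.10 (COX7A2), 0.44 ± 0.12 (COX7B), 0.46 ± 0.12 (NDUFA12) and 0.47 ± 0.13 (NDUFC1). A further 3 lie outside the rule for named genes and were chosen after their values were seen: NDUFA8 (0.52 ± 0.15), NDUFS6 (0.52 ± 0.15) and ATP5F1E (0.30 ± 0.09).

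The c ring genes also differed in their shares of c ring transcripts. Per kilobase of transcript, ATP5MC3 made up 38.1% of the 3 genes on P(rGO) films, 35.3% on PEDOT:PSS films and 36.0% on ITO films, against 26.4% in differentiated plates and 26.1% in untreated cells. ATP5MC2 made up 41.4%, 44.1% and 44.5% on the same films, against 54.0% in differentiated plates and 58.1% in untreated cells. ATP5MC1 lay between 19.5% and 20.6% on films and at 19.5% in differentiated plates, against 15.8% in untreated cells. These shares are group means, and the shift was not tested as such.

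These counts changed with the libraries kept. Without replicate 1 of the differentiated plates, 0 members were called on each single film and 1 on the film mean. Without replicate 2 of these plates, the counts were 3 on P(rGO), 0 on PEDOT:PSS, 1 on ITO and 3 on the film mean, with the plates then represented by 1 library that is assumed to vary like the other groups. On the mean of the films, all 13 members kept their sign without either one. They were called from these same libraries, so this adds no support. Leaving out 1 film library gave 0 called members on its own film each time and 5 to 8 on the mean. The 2 plate libraries also differed in their mitochondrially encoded RNA, at 8.58% and 5.42% of assigned reads, against 4.78% to 6.50% in the 6 film libraries. Cytosolic ribosomal protein genes took 2.94% to 3.69% of reads on films and 5.74% and 4.27% in differentiated plates, and the part of these shares in the result was not tested.

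**Figure D3:**
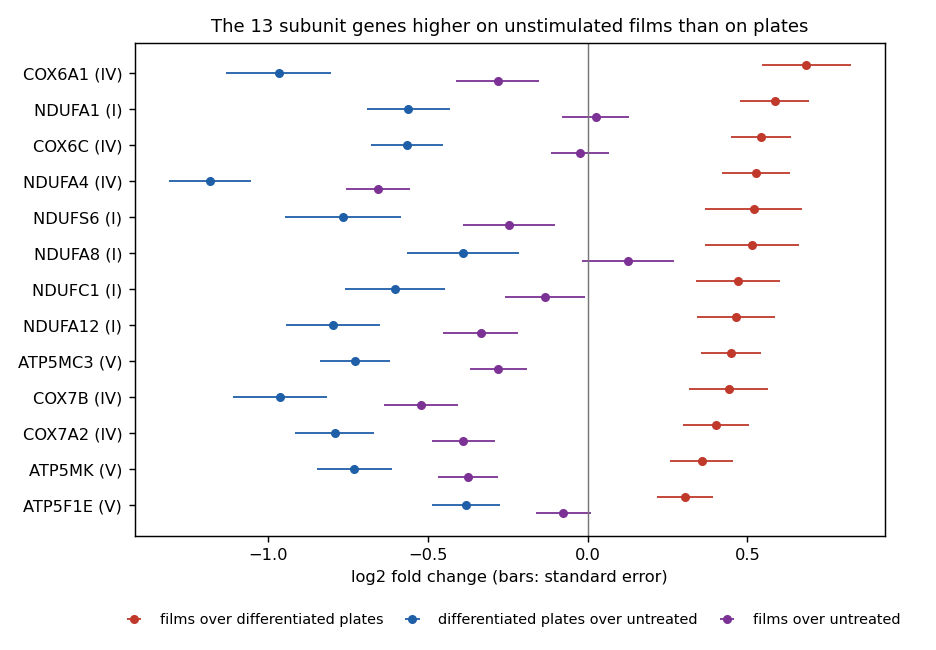
Log2 fold change with SE (horizontal axis) of the 13 subunit genes called higher on unstimulated films than on differentiated plates, with the complex in brackets; for each gene the points show the mean of 3 films over differentiated plates, differentiated plates over untreated plates and films over untreated plates, which share libraries. COX6A1 has the largest difference between films and plates (0.68) and ATP5F1E the smallest (0.30), and NDUFA1, COX6C and NDUFA8 lie near 0 for films over untreated plates.

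Between films, 0 members were called in any of the 3 pairs (0.00% of all genes called each time), and 0 members had an unadjusted p under 0.05. The median log2 fold change of the members was -0.01 for P(rGO) over PEDOT:PSS, 0.01 for P(rGO) over ITO and 0.02 for PEDOT:PSS over ITO, with a median SE of 0.15. A median of this kind does not show that the films act alike on each gene.

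Electrical stimulation was tested within each film. By edgeR's quasi-likelihood test 0 members were called on any single film, 0 for the mean of the 3 films and 0 for a difference of the effect between films, with 0.00% of all genes called in each. DESeq2 also called 0 members in each. At an unadjusted p under 0.05 there were 14 members on P(rGO), 0 on PEDOT:PSS, 3 on ITO, 12 for the mean of the films and 1 for the difference between films. The median log2 fold change of the tested members was -0.11 on P(rGO), -0.06 on PEDOT:PSS, -0.06 on ITO and -0.09 for the mean, and for the mean 61 of 79 members were below 0, against 8964 of 18081 for all genes. Per library, the median of the members on the log2 scale relative to untreated cells lay between -0.57 and -0.38 in the 6 stimulated libraries. In the 6 unstimulated ones it lay between -0.44 and -0.33, so the ranges pooled over films overlapped. Within films, these medians were apart on P(rGO) (-0.49 and -0.57 against -0.33 and -0.41) and overlapped on PEDOT:PSS and ITO. The pooled SD of that median within groups was 0.05.

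By complex, the median for the mean of the films was -0.06 for complex I, -0.08 for complex II, -0.09 for complex III, -0.11 for complex IV and -0.13 for complex V. COX6A1 was at 18.6 to 27.2 CPM in the 6 stimulated film libraries (median 22.2) and at 28.2 to 30.7 CPM in the 6 unstimulated ones (median 29.1). The stimulated libraries all lay below the unstimulated ones. The fold change of -0.38 ± 0.09 was not called (edgeR quasi-likelihood adjusted p = 0.636). On P(rGO) it stood at 18.6 and 22.6 CPM with stimulation and 30.7 and 28.2 CPM without, and on ITO at 21.7 and 21.2 CPM with stimulation and 28.7 and 29.1 CPM without. On PEDOT:PSS it was at 23.9 and 27.2 CPM with stimulation and at 29.5 and 29 CPM without. COX6C was at 57.1 to 63.8 CPM with stimulation (median 60.3) and at 68.3 to 72.9 CPM without (median 68.9), a fold change of -0.22 ± 0.06 that was not called (edgeR adjusted p = 0.770). ATP5MC3 was at 71.3 to 82.1 CPM with stimulation (median 77.5) and at 82.3 to 94.6 CPM without (median 85.0), also not called (-0.15 ± 0.06). These unstimulated libraries are the ones that were set against the plates above, so the values of the same genes in the 2 comparisons are tied. The summed level of all members was 4743 to 5153 CPM with stimulation and 5102 to 5358 CPM without, and these ranges overlapped. The highest single fold changes, such as that of COX4I2 on P(rGO) (2.01 ± 0.99), rest on a few reads.

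**Figure D4:**
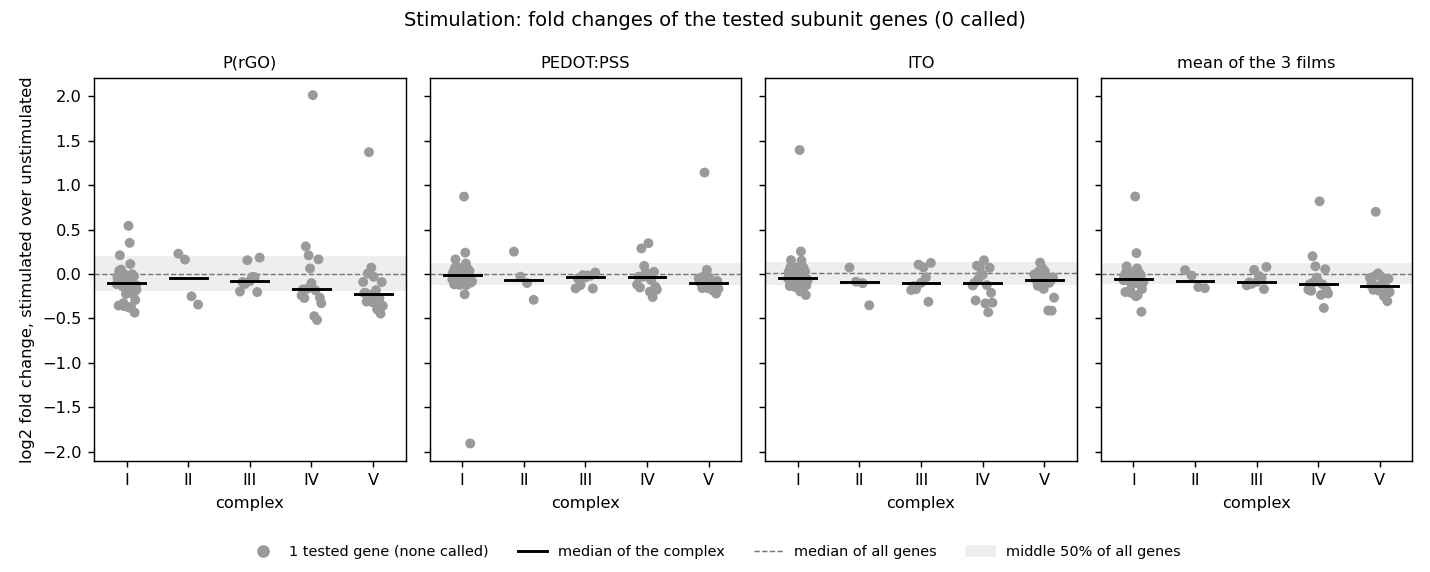
Log2 fold change of stimulated over unstimulated cells (vertical axis) for each tested subunit gene by complex, on each film and for the mean of the 3; grey points are genes, of which 0 were called, black bars the median of a complex, the dashed line the median of all genes and the grey band the middle 50% of them. The medians of the 5 complexes for the mean of the films run from -0.06 to -0.13.

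**Figure D5:**
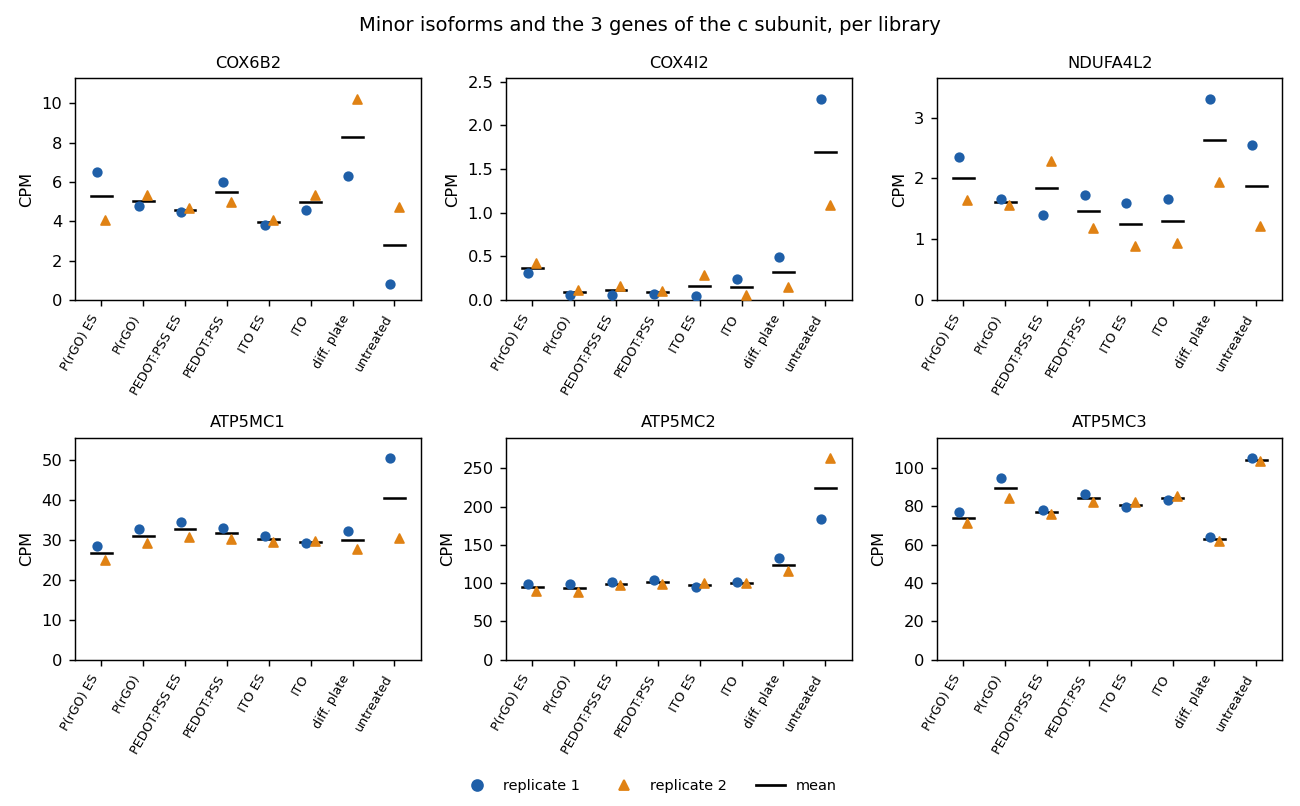
Level in CPM (vertical axis, from 0) of 3 minor isoforms (COX6B2, COX4I2, NDUFA4L2) and of the 3 c ring genes in each library, circles replicate 1, triangles replicate 2, bars the mean. COX6B2 and COX4I2 differ widely between the 2 untreated libraries (0.828 and 4.72 CPM, 2.31 and 1.09 CPM). ATP5MC3 on unstimulated films (82.3 to 94.6 CPM) lies above differentiated plates (64.2 and 61.9 CPM) and below untreated cells (105 and 104 CPM).

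The nuclear subunits were also set beside other genes of the same machinery, taken from lists chosen with earlier results of these data known. Of 53 tested assembly factors, which help build the complexes and are not part of them, 12 were lower and 2 higher in differentiated plates than in untreated cells, with a median log2 fold change of -0.14. That is 26.4% of the assembly factors, beside 64.6% of the tested subunit genes and 29.6% of all genes. On films 14 assembly factors were lower and 6 higher than in untreated cells (median -0.20), which is 37.7% of them, beside 44.8% of all genes. Of 13 tested genes of the citric acid cycle, which feeds electrons to complexes I and II, 7 (53.8%) were lower in differentiated plates. On films 7 were lower and 1 higher than in untreated cells (61.5%), beside 29.6% of all genes called on plates and 44.8% on films. MDH2 (-0.89 ± 0.14) and FH (-0.94 ± 0.13) were among those lower on plates. Of 9 tested carriers and partners outside the naming patterns, 6 were lower on plates, beside 15.8% of all genes. Among these 6 were NDUFAB1, the acyl carrier protein that is also a complex I subunit (-0.61 ± 0.13), CYC1 of complex III (-0.63 ± 0.15) and SLC25A5, which exchanges ADP for ATP (-0.87 ± 0.15). The related SLC25A4 was higher on films than in untreated cells (0.83 ± 0.16, edgeR adjusted p = 0.000749).

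The 13 subunits made from mitochondrial DNA were taken as a list of their own, and its difference from the nuclear members was not tested. In differentiated plates over untreated cells 0 of the 13 were called by edgeR, with 1 at an unadjusted p under 0.05, and their median log2 fold change was -0.24. Their sum was 60792 and 37399 CPM in differentiated plates and 62506 and 55215 CPM in untreated cells, so replicate 1 of the plates lay with the untreated libraries and replicate 2 well below them. On films 9 of the 13 were lower than in untreated cells, with a median of -0.66 and a sum of 30826 to 43798 CPM, and 24.3% of all genes were lower in that comparison. MT-ND4L had the largest of these falls (-1.07, edgeR adjusted p = 0.00262) and MT-CO3, a core subunit of complex IV, gave -0.83. Of 11 tested regulators of mitochondrial gene expression, 3 (27.3%) were lower in differentiated plates and 9 (81.8%) on films, beside 15.8% and 24.3% of all genes. GABPA, the ETS factor named above, was at -0.38 ± 0.16 in differentiated plates over untreated cells and was not called. NRF1 was at -0.30 ± 0.17 and YY1 at -0.33 ± 0.13 in that comparison, and neither was called. On films over untreated cells these factors were called lower. NRF1 was at -0.54 ± 0.13 (edgeR adjusted p = 0.00495) and YY1 at -0.44 ± 0.11 (edgeR adjusted p = 0.00385). GABPA was at -0.33 ± 0.13, just within the threshold (edgeR adjusted p = 0.04997).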

How the data were processed

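Polyadenylated RNA of 16 libraries was sequenced from a directional kit, per the labels' protocols. The deposited table holds raw read counts per gene and library, per the file headers; the submitters' processing notes name STAR, HTSeq, GRCh38.p13 and hg38, while for versions and strand setting the sources used here give nothing, which leaves overlapping and antisense genes uncertain. Assigned reads numbered 15600410 to 20851000 per library, which sets the counting error of low genes.

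From these counts, edgeR 4.0.16 (R 4.3.3, limma 3.58.1) fitted 1 mean per group over all 16 libraries, with 8 residual degrees of freedom, TMM scaling, filterByExpr over the 8 groups and robust quasi-likelihood tests. Adjusted p-values are Benjamini-Hochberg values over the 18081 genes tested, and a gene was called at 0.05 or less. SE was taken from the fold change and the square root of its F value. CPM used TMM-scaled library sizes, and levels per kilobase used the median length of a gene's protein-coding transcripts. Alternatives were DESeq2 1.42.0, total-count scaling, no filter, only the groups compared, a replicate block, each library left out and, chosen after seeing the data, a fit without the untreated libraries. The fit was also run on counts simulated from its own fitted means and spread. Such counts cannot show whether the groups share a common spread.

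The members, lists and tests were chosen with earlier results of these data known. Named genes were, in the comparisons with untreated plates, up to 3 called falls and 2 called rises per complex with at least 5 CPM in 1 group; elsewhere up to 10 called members by p; paralogous or special-role members; and the highest and lowest member per length in each complex.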

Additional observations from a re-analysis of the deposited data

Results flagged for a closer look

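Among differentiated cells, 13 members differed between films and plates. No untreated cells were grown on films, so whether the effect of differentiation differs between films and plates cannot be told. The difference between the film mean and differentiated plates may also take in any effect of the films on undifferentiated cells. On the log2 scale, films over plates, it came to 0.68 for COX6A1, 0.58 for NDUFA1, 0.54 for COX6C, 0.53 for NDUFA4, 0.52 for NDUFS6, 0.52 for NDUFA8, 0.47 for NDUFC1, 0.46 for NDUFA12, 0.45 for ATP5MC3, 0.44 for COX7B, 0.40 for COX7A2, 0.36 for ATP5MK and 0.30 for ATP5F1E. The values are higher on films in all 13, and film material and coating cannot be told apart in this comparison. Each film group and the plates hold 2 libraries, so no library could be tested for standing apart within its group.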

How the results depend on the processing

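For differentiated plates over untreated cells, 51 members were called, against 1 with only these groups fitted and 28 to 54 with 1 library left out. For P(rGO) over plates (6 called), no filter gave 3, DESeq2 11, the fit without untreated libraries 17 and leaving out a library 0 to 3. For PEDOT:PSS over plates (2 called), the same gave 1, 8, 12 and 0, and total-count scaling and only these groups 1 each. For ITO over plates (6 called), no filter and only these groups gave 0, the fit without untreated libraries 14 and leaving out a library 0 to 1. For the film mean over plates (13 called), no filter gave 6, only these groups 22, the fit without untreated libraries 25 and leaving out a library 1 to 8. The cause was not tested.

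The median of the members moved to -0.41 (plates over untreated) and -0.25 (films over untreated) with total-count scaling. Directions turned for SDHC on films with total-count scaling (0.066). With 1 library left out they turned for COX7A2L on plates (-0.43 to 0.0905), and on films for NDUFA4L2 (-0.805 to 0.25), ATP5MC1 (-0.71 to 0.00095) and SDHC (-0.27 to 0.12). Leaving out 1 library, the named genes kept their call in 335 cases, lost it in 124, gained it in 9 and turned in 4.

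Libraries of one replicate number share a code in their names, whose meaning is not given. Over 28 pairs of groups, same-numbered libraries deviated together with r from -0.189 to 0.294 (median 0.106, above 0.1 in 16), not in every pair, so they were treated as unpaired. With a replicate block, 50 members were called for plates over untreated, 50 for films over untreated, 6, 3 and 6 for P(rGO), PEDOT:PSS and ITO over plates, and 13 for the film mean. With 2 libraries a group, small differences and members of few reads are limited by depth and replication.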
